A study of Coturnix japonica with 144 samples.

Results

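Some adult Japanese quail brood chicks that they have never met, without any earlier night spent with chicks. The comparison described here asks how the bed nucleus of the stria terminalis, abbreviated BnST, of such spontaneously brooding control birds differed from that of control birds that were not labelled as brooding. It rests on 22 of the 144 RNA-seq libraries of the study, which were chosen by their labels: all BnST libraries of control birds labelled S (5 birds, 4 females and 1 male) or NS (17 birds, 10 females and 7 males). All were adult birds kept on short days and reproductively quiescent. As controls they had spent the night in a box without chicks, and they were killed after a test with unfamiliar chicks. The labels come without a key, so S was read as spontaneous brooding and NS as no spontaneous brooding. More control birds were seen to brood than carry the label S. On this reading some males labelled NS had brooded as well, for durations that the labels do not give. A further 2 control females carry neither label and were left out. The brooding females without the label S could be these 2, so whether any female labelled NS had brooded is not known. The other regions of the same birds, the hypothalamus and the nucleus taeniae (Tn), and the BnST of 23 birds that had spent the night with chicks (17 labelled R, read as brooding, and 6 labelled NR, read as not brooding) were used only to show where the BnST of control birds differed.

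The BnST is a forebrain nucleus of the extended amygdala. It connects the amygdala with the hypothalamus, belongs to the network of regions that act in social behaviour, and in mammals takes part in the onset of parental care. Immediate early genes, such as FOS and EGR1, are transcribed rapidly and transiently when neurons are stimulated, and many encode transcription factors that then act on other genes. Their RNA level in a punch of tissue shortly after a behavioural test is therefore a common readout of recent neuronal activity. The BnST libraries were made from bulk tissue, in which fewer cells of a type and less RNA per cell cannot be told apart.

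The 5 S libraries held 11478220 to 13323575 counted reads and the 17 NS libraries 10323316 to 14274993. On the first 3 principal components of 13091 genes (21.4%, 13.7% and 9.72% of the variance) the ranges of S and NS overlapped, and no library stood apart by class. The level of 50 male-biased genes was at or above 4.26 log2 CPM in the 8 males and at or below 3.70 in the 14 females, as labelled. CPM are the reads of a gene scaled to the size of its library. How these 50 genes were chosen is not stated here, so the separation is given as a description. Birds are numbered in a series from 1 to 20 and another from 21 to 50, and class and series overlapped: 3 of 5 S birds (1, 2 and 11) but only 3 of 17 NS birds (9, 10 and 12, all males) had low numbers. The comparison was therefore made without and with the number series as a covariate. Cell type and region markers were not analysed here, since the genes concerned carry no name in the files.

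No gene passed the test for a difference between S and NS birds in the BnST. Of 14773 genes tested, 0 (0%) had an adjusted p under 0.05 in edgeR's quasi-likelihood test, and the smallest adjusted p was 0.915. At an unadjusted p under 0.05 there were 761 genes, 5.15% of those tested, of which 381 were higher and 380 lower in S birds. DESeq2 and limma-voom likewise had 0 genes past the threshold, and 807 and 793 genes reached an unadjusted p under 0.05. Over all genes tested, the median log2 fold change was −0.006, its median absolute size 0.09 and the median standard error 0.123. The median 95% interval extended 0.255 log2 units to either side. A difference of that size in a typical gene was thus not detectable after adjustment with 5 against 17 birds.

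With the number series as a covariate, again 0 of 14773 genes passed the threshold and the smallest adjusted p was 0.969. There were 611 genes at an unadjusted p under 0.05, 4.14% of those tested, 243 of them higher and 368 lower in S birds. DESeq2 had 0 genes past the threshold in this model (700 unadjusted), as did limma-voom (660 unadjusted). Without bird 2, a female labelled S, 1 gene passed the threshold. This gene, ENSCJPG00005016713, had a log2 fold change of −1.07 (edgeR adjusted p = 0.0303), and it is named because it was the only call, after its values were seen.

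**Figure D1:**
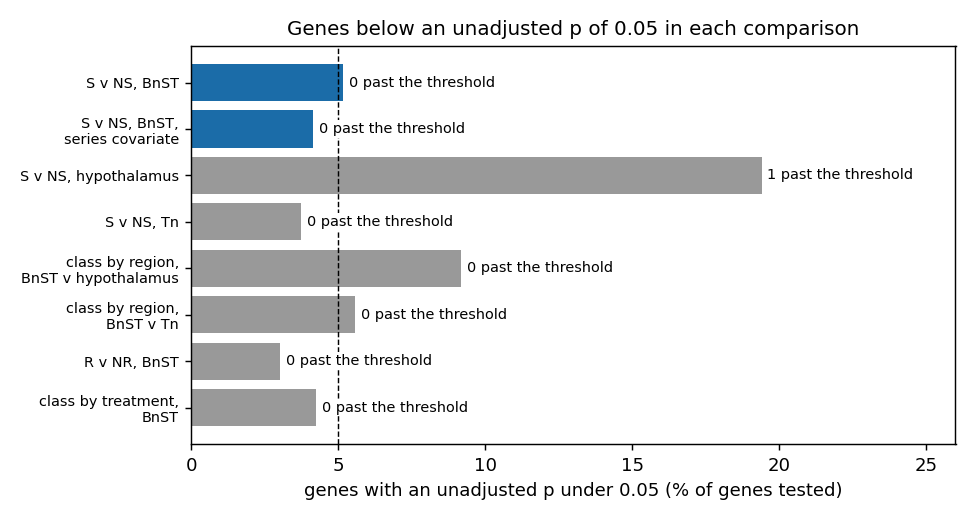
Share of genes with an unadjusted p under 0.05 (% of genes tested, horizontal axis) in the 8 comparisons made, with the number of genes past the adjusted threshold beside each bar; the dashed line marks 5%. Both comparisons in the BnST of control birds (blue) lie close to the line, at 5.15% and 4.14%, whereas the hypothalamus of the same birds reaches 19.4% without the number series as a covariate (2873 genes, and 1644 with it).

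Of the genes that carry a name, 12 are immediate early genes. They come from the 21 genes that the study had called for treatment or for the duration of brooding on these same birds, so their values here are no independent evidence. None of the 12 passed the threshold (0 of 12, against 0% of all genes), and the smallest unadjusted p among them was 0.205. In S birds 10 of the 12 were nominally higher and 2 lower, with a median log2 fold change of 0.11 (range −0.14 to 0.32), beside −0.006 over all genes. With the number series as a covariate 7 were higher and 5 lower, with a median of 0.031 beside −0.004.

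FOS, the most widely used marker of neuronal activity, encodes a subunit of the AP-1 transcription factor. It was measured at 188 and 285 CPM in S birds 1 and 2, 245 in bird 11, 121 in bird 32 and 310.4 in bird 35, and ranged in NS birds from 136 to 408 with a median of 202. Bird 32 lay below every NS bird, whereas the other 4 S birds lay within the NS range. The log2 fold change of FOS was 0.072 (95% interval −0.37 to 0.51, edgeR adjusted p = 0.981). FOSB, which encodes another Fos subunit of AP-1, was at 17.4, 26.3, 24.1, 10.7 and 20.6 CPM in S birds 1, 2, 11, 32 and 35 and at 6.06 to 39.9 CPM in NS birds (median 15.4). All S values fell inside the NS range, with a log2 fold change of 0.087 (−0.55 to 0.73). JUN, the partner of Fos proteins in AP-1, had S values of 99.2 to 190.5 CPM inside an NS range of 91.2 to 258 and a log2 fold change of −0.028 (−0.40 to 0.34). The 3 AP-1 genes thus overlapped between the classes, and their intervals included a change of at least 0.34 log2 units in either direction.

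The zinc finger transcription factors EGR1 and EGR4 gave higher means in S birds, with wide spreads. EGR1 was at 373, 551, 638, 338 and 890.1 CPM in S birds 1, 2, 11, 32 and 35, and at 225 to 826 CPM in NS birds with a median of 438. Bird 35 exceeded every NS bird, and 2 S birds lay below the NS median. The log2 fold change of EGR1 was 0.24 (−0.26 to 0.74, edgeR adjusted p = 0.950), and 0.010 without bird 35. EGR4 was at 55.6, 76.9, 92.7, 43.3 and 167 CPM in the same order and at 22.1 to 196 CPM in NS birds (median 69.5). All 5 S birds lay inside the NS range, and the log2 fold change was 0.13 (−0.59 to 0.86). Without bird 35 the value for EGR4 was −0.24, so its sign rested on that bird. Over 16 alternative fits the value ranged from 0.010 to 0.419 for EGR1 and from −0.244 to 0.445 for EGR4.

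NPAS4, a transcription factor induced by calcium entry in neurons, was at 46.4, 68.6, 47.4, 25.8 and 81.2 CPM in S birds 1, 2, 11, 32 and 35, and ranged from 20.4 to 129.8 CPM in NS birds with a median of 37.99. In 4 of 5 S birds it was above the NS median, and its log2 fold change was 0.14 (−0.56 to 0.84, edgeR adjusted p = 0.981). NR4A3, an orphan nuclear receptor, had the highest value of the 12 genes at 0.32 (−0.19 to 0.84, edgeR adjusted p = 0.950). It was at 76.1, 115, 134, 49.7 and 103 CPM in the S birds and at 32.4 to 122 CPM in NS birds (median 71.1), so that 4 of 5 S birds were above the NS median and 1, bird 11, above all NS birds. With the number series as a covariate the log2 fold change of NR4A3 was 0.13 (−0.42 to 0.69), and without bird 11, in the model with class alone, it was 0.17. Over the 16 alternative fits it ranged from 0.078 to 0.486.

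BTG2 and TOB1 encode antiproliferative proteins of the BTG/TOB family, which act on the shortening of mRNA tails. Their log2 fold changes were 0.033 (−0.47 to 0.54) and 0.041 (−0.17 to 0.25). All 5 S birds lay inside the NS range for both genes, from 134 to 328 CPM for BTG2 (NS 112 to 413) and from 89.7 to 123 CPM for TOB1 (NS 86.5 to 145). KLF2, a Krüppel-like transcription factor, was lower in 4 of 5 S birds than the NS median of 37.3 CPM, with 31.8, 46.1, 34.8, 27.1 and 36.8 CPM in birds 1, 2, 11, 32 and 35. Its interval was among the narrowest of the 12 genes, and the log2 fold change was −0.14 (−0.35 to 0.079, edgeR adjusted p = 0.950), or −0.19 (−0.42 to 0.051) with the number series.

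SIK1, a kinase that restrains CREB coactivators, was above the NS median in 4 of 5 S birds, at 48.2, 53.6, 46.95, 39.1 and 40.9 CPM beside an NS range of 31.3 to 72.3 and a median of 39.3. The class difference in log2 was 0.14 (−0.14 to 0.43) but −0.040 (−0.27 to 0.19) with the number series as a covariate. The low-numbered NS males 9, 10 and 12 had 72.3, 49.03 and 43.1 CPM of SIK1, all above that median. RRAD, a small GTPase that inhibits voltage-gated calcium channels, had S values of 34.03 to 40.1 CPM in 4 birds and 65.6 CPM in bird 35, beside 18.1 to 59.8 CPM in NS birds. Its log2 fold change was 0.16 (−0.26 to 0.57) with all birds and −0.065 without bird 35. Over the 16 alternative fits it ranged from −0.065 to 0.41.

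The immediate early genes varied between birds more than between classes. When the 22 birds were ranked by the mean log2 CPM of the 12 genes, the S birds stood at ranks 2 (bird 35), 6.5 (birds 2 and 11, tied), 14 (bird 1) and 20 (bird 32). The mean ranged from 5.83 to 6.86 log2 CPM in S birds and from 5.47 to 7.15 in NS birds, so the whole S range lay within the NS range. NS bird 38, a female, had the highest FOS, EGR4 and NPAS4 values of the NS birds, and NS bird 39, another female, the lowest.

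**Figure D2:**
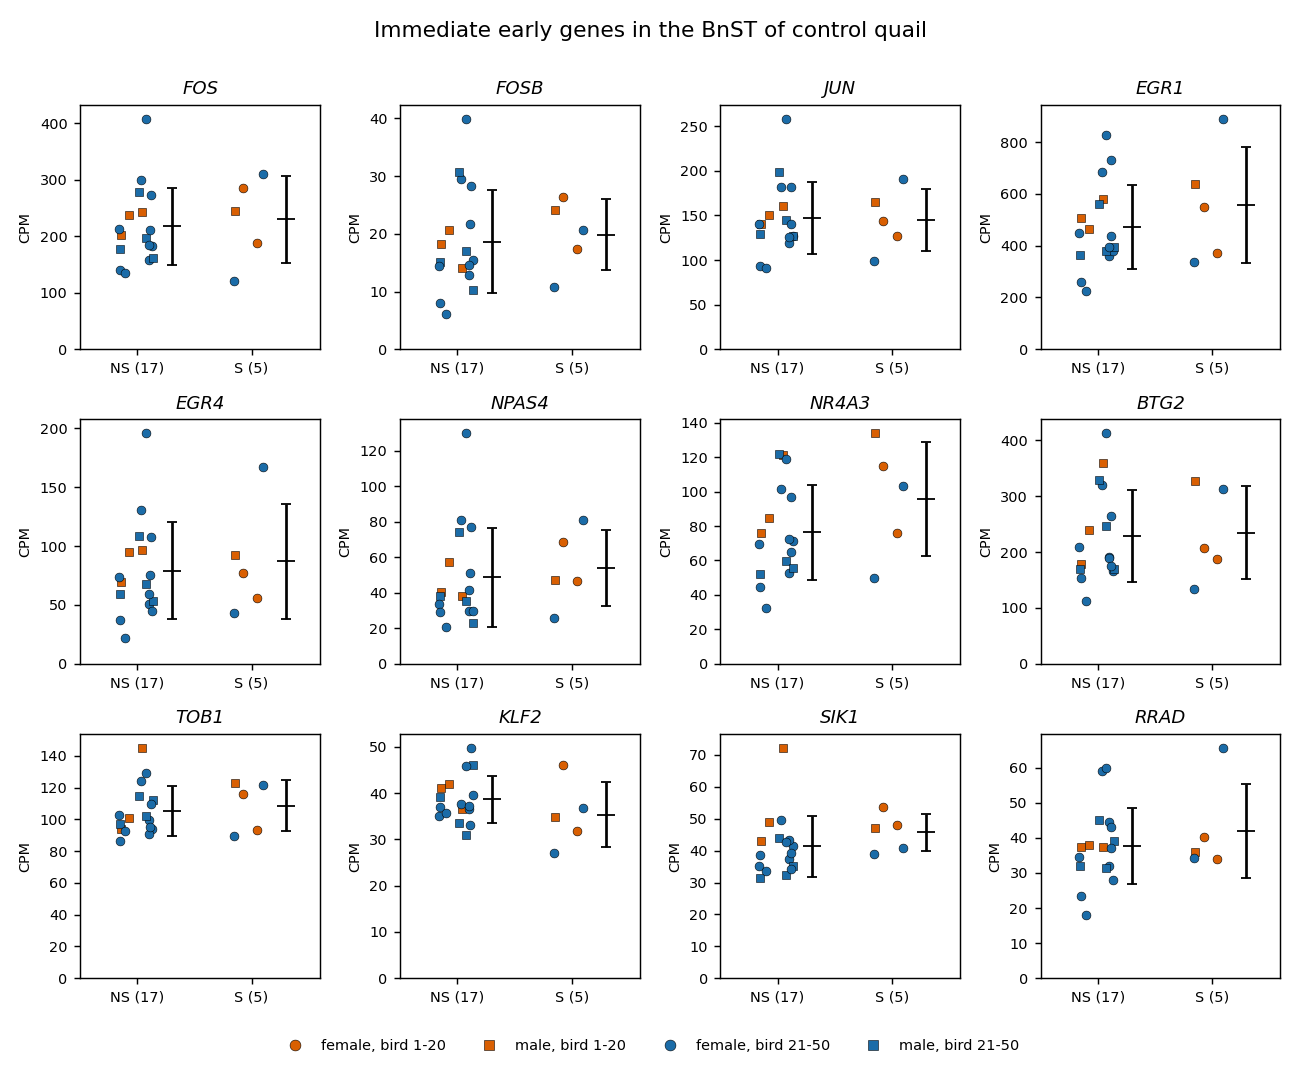
CPM (vertical axes, linear from 0) of the 12 immediate early genes in the BnST of each control bird, NS (17) and S (5); circles are females and squares males, colours give the number series, and bars show the mean ± SD. The ranges of S and NS birds overlap in every panel, and single S birds lie outside the NS range for FOS and KLF2 (bird 32, below) and for EGR1 and RRAD (bird 35, above) and NR4A3 (bird 11, above).

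A further 3 of the 21 genes are long noncoding RNAs without a symbol. ENSCJPG00005007063 had a log2 fold change of 0.17 (−0.33 to 0.68), ENSCJPG00005007066 of 0.18 (−0.40 to 0.76) and ENSCJPG00005002600 of 0.12 (−0.44 to 0.68). Their S ranges, of 26.6 to 68.0, 2.49 to 7.96 and 9.06 to 21.8 CPM, overlapped NS ranges of 23.5 to 79.8, 2.61 to 8.59 and 6.48 to 29.1 CPM. None of the 3 passed the threshold.

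The neuropeptide genes did not pass the threshold either. UCN3, which encodes a peptide of the corticotropin-releasing factor family, was expressed at low levels that differed many-fold between birds: 13.3, 0.664, 0.664, 3.74 and 1.14 CPM in S birds 1, 2, 11, 32 and 35, and 0.359 to 19.3 CPM in NS birds with a median of 3.66. Its log2 fold change of −0.45 had an interval from −2.10 to 1.19, the widest of the 21 genes, and the value was −0.091 with the number series as a covariate. Single birds moved it from −1.77 without bird 1 to −0.18 without bird 2 (−0.18 without bird 11 and −0.22 without bird 35), and it was −1.28 in birds 21 to 50 and 1.04 in birds 1 to 20. In the hypothalamus of the same birds UCN3 was at 16.3 to 24.4 CPM in S and 14.02 to 32.5 CPM in NS birds, a much narrower spread. NTS, the gene of neurotensin, was at 57.9, 113, 62.1, 38.4 and 96.9 CPM in the S birds, from below to above the NS range of 54.4 to 98.6 CPM. Its log2 fold change was −0.019 (−0.38 to 0.35), and its SD was 30.4 CPM in S and 14.1 CPM in NS birds.

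The remaining named genes had intervals that were narrower than those of UCN3 and included 0. APMAP, which encodes an adipocyte plasma membrane-associated protein, was at 99.7, 82.8, 119, 120.1 and 101 CPM in the S birds and 85.0 to 123 CPM in NS birds, with a log2 fold change of 0.054 (−0.11 to 0.22). ST8SIA2, a polysialyltransferase that modifies the neural cell adhesion molecule, had a log2 fold change of 0.059 (−0.12 to 0.23), with 22.95 to 26.5 CPM in S and 19.7 to 27.6 CPM in NS birds. PLCD1, a phospholipase C, had −0.051 (−0.30 to 0.20), with 69.2 to 93.6 CPM in S and 58.6 to 111 CPM in NS birds. SS18L2, a homologue of the chromatin remodelling subunit SS18, had −0.13 (−0.47 to 0.22) without and −0.002 (−0.34 to 0.33) with the number series. Its S values of 18.2, 10.3, 10.9, 23.96 and 16.2 CPM reached from below to above the NS range of 11.1 to 22.8 CPM. For each of the 21 genes the mean log2 CPM of S and NS birds was also compared by exact two-sided permutation tests in all 22 birds, in birds 1 to 20, in birds 21 to 50 and in females. Of these 84 tests 0 had an unadjusted p under 0.05, and the smallest exact p was 0.0989. With 3 S against 3 NS birds numbered 1 to 20 the smallest p that can be reached is 0.1.

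**Figure D3:**
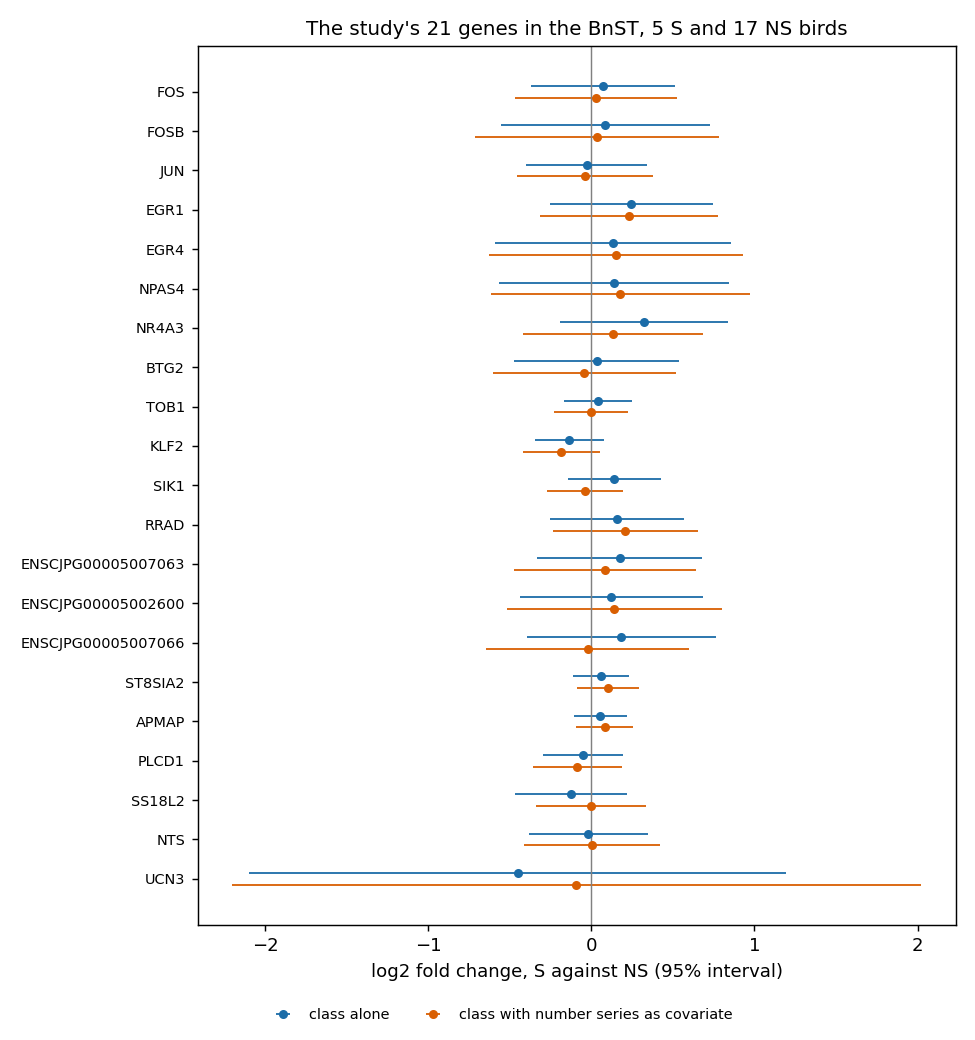
Log2 fold changes, S against NS in the BnST, of the study's 21 genes (points) with 95% intervals (lines), from the model with class alone (blue) and with the number series as a covariate (orange). Every interval includes 0, from APMAP with a blue interval of −0.11 to 0.22 to UCN3 with one of −2.10 to 1.19.

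Of the unnamed genes, the 20 with the smallest unadjusted p comprised 12 that were higher and 8 that were lower in S birds, with p from 2.15e-04 to 0.00218 and none past the threshold. All 20 had the same sign with the number series as a covariate. Of them, 18 then had an unadjusted p under 0.05, as did 4.14% of all genes. This contrast chose the 20 in the same libraries, so the likeness of the 2 models is no independent support. The values of the first 2 in each direction are likewise given as a description. ENSCJPG00005017505 was at 5.14, 2.44, 12.9, 2.65 and 2.45 CPM in S birds 1, 2, 11, 32 and 35 and at 0.925 to 3.03 CPM in NS birds (median 2.13). Birds 1 and 11 were above all NS birds and the other 3 S birds were inside the NS range, and the log2 fold change was 1.33 (SE 0.305, adjusted p = 0.915 in edgeR). Without bird 11 it was 0.64, and it was 1.78 in birds 1 to 20 and 0.32 in birds 21 to 50. ENSCJPG00005017608 was at 26.4, 18.7, 27.95, 14.2 and 16.95 CPM in the S birds and at 9.44 to 17.8 CPM in NS birds, so that 3 of 5 S birds exceeded all NS birds. The fitted log2 fold change was 0.63 (SE 0.148), with 1.03 in birds 1 to 20 and 0.18 in birds 21 to 50. Some birds that had spent the night with chicks reached similar levels of both genes, whether labelled NR or R. Means of ENSCJPG00005017505 were 2.02 CPM in NS, 5.12 in S, 5.03 in NR and 3.66 in R birds. Its medians were 2.13, 2.65, 4.37 and 2.025 CPM in the same order, so the R median was close to that of NS. R birds ranged from 0.476 to 12.99 CPM. The interaction of class with treatment for this gene was −1.80 (−3.13 to −0.46, unadjusted p = 0.00934 and adjusted p = 0.836 in edgeR). Means of ENSCJPG00005017608 were 13.4 CPM in NS, 20.8 in S, 18.4 in NR (9.88 to 28.9) and 18.5 in R birds (8.56 to 30.9). Its medians were 12.9, 18.7, 16.8 and 16.1 CPM in that order.

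The first 2 genes in the other direction differed by little in size but also by little between birds. ENSCJPG00005006331 was at 30.6, 30.6, 27.7, 29.2 and 31.7 CPM in the S birds and at 31.6 to 38.04 CPM in NS birds, of which 16 of 17 were above every S bird. Its log2 fold change was −0.21 (SE 0.053). ENSCJPG00005007040 was at 42.1, 47.5, 43.6, 49.6 and 47.98 CPM in the S birds and at 48.4 to 56.3 CPM in NS birds, with 14 of 17 NS birds above every S bird and a log2 fold change of −0.17. Means of ENSCJPG00005006331 were 34.5 CPM in NS, 35.3 in NR and 37.5 in R birds, and medians 34.15, 34.8 and 34.7 CPM. The R birds reached from 27.9 to 82.04 CPM, so their mean lay above their median. Means of ENSCJPG00005007040 were 51.9 CPM in NS, 52.9 in NR and 52.5 in R birds (45.75 to 73.7), and medians 52.2, 53.6 and 50.7 CPM.

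**Figure D4:**
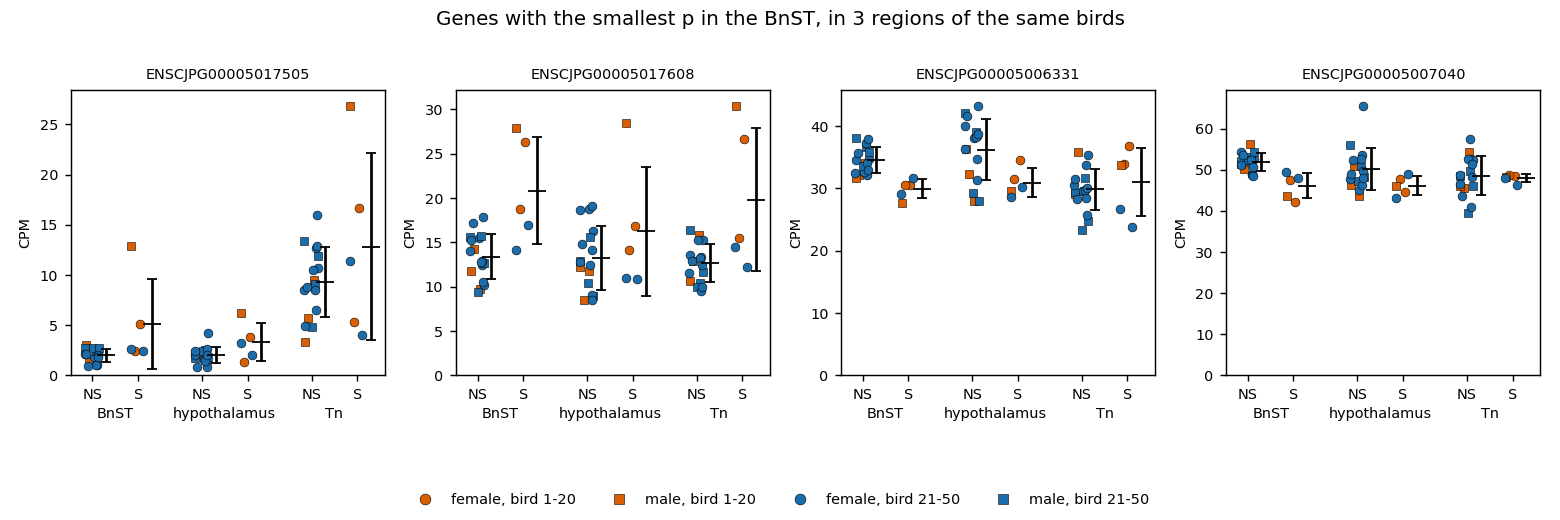
CPM (vertical axes, linear from 0) of the 2 higher and 2 lower genes with the smallest p in the BnST, in the 3 regions of the same birds, with NS and S side by side; circles are females, squares males, colours give the number series, and bars show the mean ± SD. In the BnST, 16 of 17 NS birds lie above all S birds for ENSCJPG00005006331, which is not the case in the Tn.

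The same contrast was made in the other regions of the same 22 birds. In the hypothalamus 1 of 14814 genes (0.00675%) passed the threshold, and 2873 genes had an unadjusted p under 0.05 (19.4%; 1526 higher and 1347 lower in S birds). In the Tn 0 of 14688 genes passed in edgeR, and 549 genes (3.74%) had an unadjusted p under 0.05. With the number series as a covariate the unadjusted counts were 1644 in the hypothalamus and 1314 in the Tn, with smallest adjusted p of 0.162 and 0.196 in edgeR. The hypothalamic count depended on the tool and on single birds: DESeq2 called 500 genes, edgeR called 0 with the number series as a covariate, and without bird 11, the only S male, edgeR called 180. Without any one of the other 4 S birds it called 0. The 1 gene past the threshold in the hypothalamus, ENSCJPG00005009335, is named because it was the only call, after its values were seen. It was at 2.21, 2.79, 2.26, 2.404 and 1.79 CPM in hypothalami of S birds 1, 2, 11, 32 and 35 and at 3.02 to 5.91 CPM in NS birds, with no overlap, and its log2 fold change was −0.98 (−1.31 to −0.65, edgeR adjusted p = 0.0339). Its BnST levels were 3.18, 2.44, 6.80, 2.49 and 2.36 CPM in S and 2.402 to 10.4 CPM in NS birds. The log2 fold change there was −0.69 (−1.33 to −0.042, unadjusted p = 0.0377 and adjusted p = 0.915 in edgeR).

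Whether the class difference in the BnST departed from that in another region was tested by the interaction of class with region, with the bird as a block. This model held no term for the number series by region. A series difference that varied between regions would therefore enter the tested coefficient. Against the hypothalamus 0 of 15194 genes passed the threshold in edgeR and 1393 (9.17%) had an unadjusted p under 0.05. Against the Tn 0 of 15148 genes passed and 844 (5.57%) had an unadjusted p under 0.05. Limma-voom with the bird as a random block also called 0 genes in both, with 1359 and 876 genes unadjusted. Without bird 32 edgeR called 1 gene in the interaction with the Tn, ENSCJPG00005002088 (−1.52, adjusted p = 0.0429), named as the only call after its values were seen. For ENSCJPG00005009335, the gene past the threshold in the hypothalamus, the class difference in the BnST departed from that in the hypothalamus by 0.27 log2 units (−0.34 to 0.88, edgeR adjusted p = 0.838).

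Among the 12 immediate early genes, 10 were nominally lower in S birds in the hypothalamus (median log2 fold change −0.12 beside −0.004 over all genes, 0 past the threshold). In the Tn 10 were nominally lower as well (median −0.094 beside −0.006). In the BnST 10 had been nominally higher, but only 7 with the number series as a covariate. Of the 12, 5 had an unadjusted p under 0.05 in the hypothalamus, where 19.4% of all genes did, and 0 in the Tn, where 3.74% did. The regions come from the same birds. The study called these 12 genes on these same birds, some of them as falling with brooding duration in the hypothalamus. Their signs are therefore no independent evidence in any region. The values that follow are from models without the number series. In the hypothalamus NPAS4 was at 22.2, 11.1, 13.02, 10.2 and 14.7 CPM in S birds 1, 2, 11, 32 and 35 and at 14.3 to 34.8 CPM in NS birds (median 23.1), so that every S bird was below the NS median and 3 were below all NS birds. The log2 fold change of NPAS4 there was −0.62 (−0.99 to −0.24, edgeR adjusted p = 0.103). The interaction of class with region for NPAS4, BnST against hypothalamus, was 0.83 log2 units (0.091 to 1.57, unadjusted p = 0.0296 and adjusted p = 0.504 in edgeR). EGR4 was likewise below the NS median of 27.9 CPM in the hypothalamus of all 5 S birds. Its log2 fold change there was −0.60 (−0.97 to −0.23, edgeR adjusted p = 0.103) and its interaction of class with region 0.75 (−0.093 to 1.602).

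For FOS the hypothalamic log2 fold change was −0.27 (−0.45 to −0.076, edgeR adjusted p = 0.134) and the interaction of class with region 0.32 (−0.079 to 0.72). In the interaction with the hypothalamus 11 of the 12 immediate early genes had a positive sign (median 0.23 beside −0.012 over all genes). In the interaction with the Tn 11 of 12 did (median 0.23 beside 0.008), with 0 past the threshold in either interaction. The 12 genes were measured in the same birds, so their signs are not independent of each other. SIK1 had an unadjusted p under 0.05 against the Tn, at 0.36 log2 units (0.079 to 0.65, edgeR adjusted p = 0.877). Outside these genes, ST8SIA2 was at 19.9 to 23.1 CPM in hypothalami of S birds and 20.8 to 29.3 CPM in NS birds. Its interaction of class with region, BnST against hypothalamus, was 0.30 log2 units (0.11 to 0.50, edgeR adjusted p = 0.42).

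The genes with the smallest p in the BnST were not all alike in the other regions. Of the 20, 11 had an unadjusted p under 0.05 in the hypothalamus (19.4% of all genes did) and 5 in the Tn (3.74% of all genes). The 20 were chosen on the BnST of the same birds, whose regions deviate together, so these counts are a description. ENSCJPG00005017608 had log2 fold changes of 0.31 (−0.12 to 0.73) in the hypothalamus and 0.64 (0.31 to 0.97) in the Tn, where S birds 1 and 11 were at 26.6 and 30.4 CPM and all NS birds at or below 16.4 CPM. ENSCJPG00005006331 had −0.22 (−0.41 to −0.029) in the hypothalamus and 0.052 (−0.14 to 0.25) in the Tn.

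The like contrast among birds that had spent the night with chicks compared 17 R with 6 NR birds. Before its values, 2 of the R males stand apart. Bird 17, labelled male, had male-biased genes at 3.69 log2 CPM. The lowest other sensitized male was at 4.28 and the highest sensitized female at 3.76. The BnST library of bird 49 had a median correlation of 0.877 with the other BnST libraries, beside at least 0.951 for the other sensitized birds. In R against NR, 0 of 14766 genes passed the threshold in edgeR and 447 (3.03%) had an unadjusted p under 0.05, and DESeq2 also called 0 genes (493 unadjusted). Class and number series overlapped here as well: 9 of 17 R birds but 2 of 6 NR birds had low numbers. With the number series as a covariate edgeR called 0 genes (780 unadjusted). Without bird 17 there were 0 genes past the threshold (407 unadjusted), and without bird 49 also 0 (568 unadjusted).

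The interaction of class with treatment tested whether the 2 contrasts differed in the BnST. It gave 0 of 15182 genes past the threshold in edgeR, 643 genes (4.24%) reached an unadjusted p under 0.05 and DESeq2 called 0 genes (700 unadjusted). Without bird 17 the numbers were 0 (622 unadjusted) and without bird 49 they were 0 (830 unadjusted). With the number series as a covariate edgeR called 0 genes (540 unadjusted). The median interval of this test extended 0.408 log2 units to either side, wider than for S against NS alone.

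Of the 12 immediate early genes, 11 were nominally lower in R than in NR birds (median log2 fold change −0.17 beside 0.006 over all genes). In S against NS 10 were nominally higher, but only 7 with the number series as a covariate. The study called these genes on these same birds, so the signs are no independent evidence. In the interaction 11 of 12 had a negative sign (median −0.29 beside 0.013), with 0 past the threshold and 0 at an unadjusted p under 0.05. The values of these genes in R against NR and in the interaction are from models without the number series. A series difference could therefore enter their signs. FOS was at a median of 202 CPM in NS and 245 CPM in S birds, and of 150.1 CPM in NR and 121 CPM in R birds. The means were closer in control birds, at 218 CPM in NS and 230 CPM in S, beside 163 CPM in NR and 134 CPM in R. The log2 fold change of FOS was 0.072 (−0.37 to 0.51) in S against NS and −0.29 (−0.60 to 0.029) in R against NR. The difference of the 2 contrasts was −0.36 (−0.90 to 0.17, edgeR adjusted p = 0.836). EGR4 had medians of 69.5, 76.9, 42.7 and 34.5 CPM in NS, S, NR and R birds and an interaction of −0.47 (−1.40 to 0.47). KLF2 had medians of 37.3, 34.8, 30.3 and 28.5 CPM in the same order and an interaction of 0.058 (−0.21 to 0.33). The 4 classes overlapped in each of these genes.

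**Figure D5:**
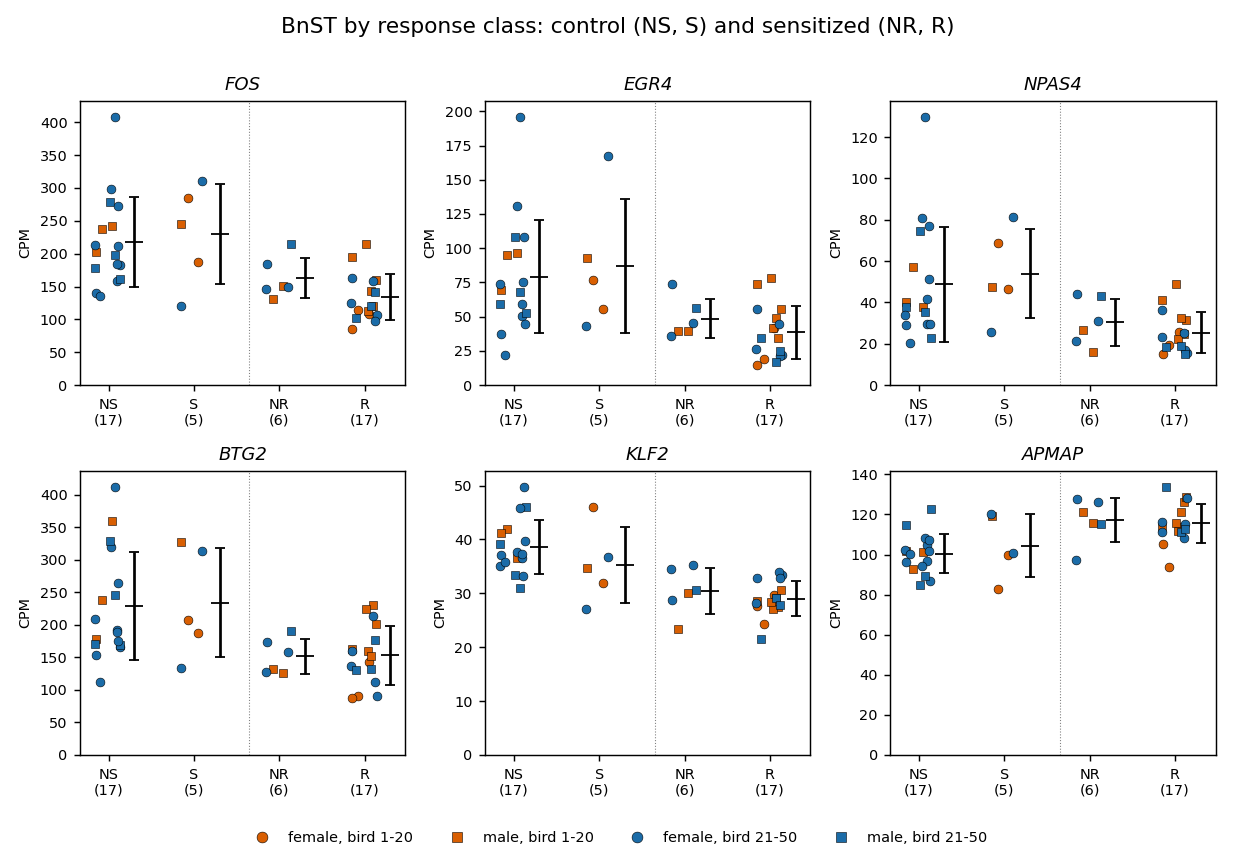
CPM (vertical axes, linear from 0) of 6 of the study's genes in the BnST of control birds (NS, S) and sensitized birds (NR, R) on either side of the dotted line; circles are females, squares males, colours give the number series, and bars show the mean ± SD. FOS has medians of 202 and 245 CPM in NS and S and of 150.1 and 121 CPM in NR and R, with overlapping ranges. Its means are 218 and 230 CPM in NS and S and 163 and 134 CPM in NR and R.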

How the data were processed

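Reads of 144 libraries (48 birds, 3 regions) had been aligned by the authors to the quail genome of Ensembl (HISAT2), assigned to genes with HTSeq and deposited as raw counts of 21561 genes; the strand setting and the versions of these tools are not given in the sources used here. Of the table's columns, 0 belonged to other series. Supplementary tables of the paper paired 21 identifiers with a symbol or description, and all other genes are given by identifier. Fixed gene lists other than immediate early genes (12 of 47 symbols matched) had fewer than 3 matched members and were not described, among them neuropeptides (2 of 33 symbols matched).

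The main tests used edgeR 4.0.16 in R 4.3.3 (TMM, filterByExpr requiring a count of 10 and a total of 15, robust quasi-likelihood F test, Benjamini-Hochberg adjustment, threshold 0.05). Alternatives used DESeq2 1.42.0, limma 3.58.1 and sva 3.50.0, and figures Python 3.11.15 with matplotlib 3.10.9. The standard error of a log2 fold change was its size over the root of its F statistic. CPM per bird were normalized over the 48 libraries of a region, and log2 values used a prior count of 2. The fits were tested on simulated data.

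Genes were named by a rule: the 20 with the smallest p in S against NS (at most 2 unnamed identifiers per direction), genes past the threshold in the interaction tests, and all 21 genes of the supplementary tables. These genes, lists and comparisons were chosen with earlier results of these data known. Each bird's number marks its libraries in the 3 regions, so bird was a block in the class by region tests. BnST deviations from class and sex means correlated with the same bird's hypothalamus (lowest r 0.232) and Tn (lowest r 0.146), and in 20 of 21 birds best with its own. None of 231 pairs of libraries was a duplicate. Leaving out birds 17 and 49 was chosen after seeing the data.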

Additional observations from a re-analysis of the deposited data

Results flagged for a closer look

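Among the genes described and the library measures, a bird far from the others of its class was looked for in 32 sets of BnST values of the 5 S birds. Chance alone would single out about 1 in 20 sets, and 2 were found. RRAD in the BnST was at 65.6 CPM in S bird 35, a female, while the next S bird, bird 2, was at 40.1 CPM. The level of ENSCJPG00005009335 in the BnST was 6.80 CPM in S bird 11, the only male labelled S, and 3.18 CPM in the next S bird, bird 1.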

How the results depend on the processing

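S against NS in the BnST had 0 genes past the threshold under all 16 alternatives, with 370 to 1085 genes unadjusted. With the number series as a covariate it had 0 to 1 genes when single S birds were left out. In the hypothalamus DESeq2 gave 500 genes, no filter on low counts 0 and the number series 0, and leaving out single S birds gave 0 to 180. R against NR without a filter gave 1 gene, ENSCJPG00005003153 (−7.25, adjusted p = 0.0316 in edgeR, named after its values were seen). The interaction of class with the Tn gave 0 to 1 genes when S birds were left out. With no replicate block the interactions of class with region had 0 genes past the threshold, as with the block, and 662 (hypothalamus) and 407 (Tn) unadjusted. For log2 fold changes of 25 named genes, 355 of 400 values kept their sign and side of the threshold, and 45, in 15 genes, changed sign below the threshold. The cause was not tested. With 2 surrogate variables the values were −0.006 for NPAS4, −0.011 for RRAD, −0.024 for ENSCJPG00005002600, −0.027 for FOSB, −0.066 for FOS, −0.11 for BTG2, −0.14 for EGR4, 0.055 for PLCD1 and 0.080 for UCN3. In birds 1 to 20 they were −0.030 for TOB1, −0.032 for RRAD, −0.097 for BTG2, −0.14 for SIK1, −0.21 for EGR4, 0.20 for NTS and 1.04 for UCN3. In birds 21 to 50 they were −0.067 for ENSCJPG00005007066, −0.23 for ENSCJPG00005002600, −0.27 for FOSB and 0.18 for SS18L2. In females they were −0.026 for FOSB, −0.059 for BTG2, −0.24 for ENSCJPG00005002600 and 0.026 for PLCD1, and with sex and series −0.007 for FOS, −0.093 for SIK1, 0 for JUN and 0.014 for UCN3. Leaving out single S birds gave −0.12 to 0.18 for BTG2, −0.24 to 0.31 for EGR4, −0.064 to 0.26 for ENSCJPG00005002600, −0.061 to 0.23 for FOS, −0.035 to 0.25 for FOSB, −0.15 to 0.083 for JUN, −0.058 to 0.32 for NPAS4, −0.22 to 0.15 for NTS, −0.091 to 0.011 for PLCD1, −0.065 to 0.22 for RRAD, −0.009 to 0.10 for TOB1 and −1.77 to −0.18 for UCN3.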
